A study of Homo sapiens with 4 samples.

Results

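The SOCS family of cytokine signalling inhibitors was examined in HCT116 cells, a line derived from a human colorectal carcinoma, with and without a knockout of C14orf159, a mitochondrial matrix protein gene now named DGLUCY. The members were taken by gene symbol and are SOCS1 to SOCS7 and CISH, 8 of 26255 genes in the files. The family was picked because SOCS6 had already stood out as lower in the knockout libraries of this same comparison, so the knockout and control values below are given as a description, without a test. Control cells carried an empty vector per the labels (EV control, 2 libraries) and were set beside cells knocked out for C14orf159 (KO, 2 libraries). The study set out to learn why C14orf159 lowers migration, invasion and spheroid growth. In the files, control columns are headed AAVS1, a site often targeted as a neutral control, and knockout columns sgDGLUCY. Which of these the controls carried was not settled, and neither clones, cultures nor guide sequences are given in the sources used here. Whether replicates are separate cultures is therefore not known, and the EV controls may differ by technical spread alone. The KO libraries differed more from each other, as given below.

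SOCS proteins are adaptors of ubiquitin ligases. Each has a central SH2 domain that binds phosphotyrosine and a C-terminal SOCS box that recruits elongins B and C and cullin-5, so that bound receptors or kinases are marked for breakdown. CISH and SOCS1 to SOCS3 are known as genes that STAT factors switch on after cytokine signals and that then damp the same signals, while SOCS4 to SOCS7 are larger proteins linked more to receptor tyrosine kinases and insulin signalling.

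The promoters of SOCS6 and CISH are shown as an example from each kind, and because SOCS6 is the member whose level differed most between the groups. The sequences are the 250 bases before the gene's start in RefSeq (build GRCh38.p14, whereas the expression values rest on hg19), written 5′ to 3′ on the gene's strand. SOCS6 lies on the plus strand at chr18:70288795-70289044 and CISH on the minus strand at chr3:50611775-50612024. Capitals mark the STAT motif TTCNNNGAA.
SOCS6: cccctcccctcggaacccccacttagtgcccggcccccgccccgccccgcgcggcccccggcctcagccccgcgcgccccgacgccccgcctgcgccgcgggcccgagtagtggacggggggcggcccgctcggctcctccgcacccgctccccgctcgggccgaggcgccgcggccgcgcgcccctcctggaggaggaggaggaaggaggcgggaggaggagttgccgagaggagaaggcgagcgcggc
CISH: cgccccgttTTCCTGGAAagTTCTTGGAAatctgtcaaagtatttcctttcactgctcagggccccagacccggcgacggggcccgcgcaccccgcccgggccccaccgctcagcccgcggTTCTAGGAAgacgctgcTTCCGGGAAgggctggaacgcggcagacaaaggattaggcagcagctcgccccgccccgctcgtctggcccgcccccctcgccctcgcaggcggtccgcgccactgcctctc
CISH held 4 copies of TTCNNNGAA, starting 241, 230, 129 and 112 bases before the gene's start, and SOCS6 held 0. Both strands were covered, since the motif reads the same on the other strand. No other motif was searched, and the 4 copies do not overlap. TTCNNNGAA was present in 6.57% of 35116 promoter windows of this length and in more than 1 copy in 0.356%. SOCS1, SOCS4 and both listed starts of SOCS3 did not hold it in this window. The motif thus set CISH apart from every other member scanned, and did not separate the different kinds. The SOCS6 window was 82% G and C with 38 CG dinucleotides, against medians of 58% and 11 over all windows. Windows of the other members scanned lay above these medians too, at 62.8% to 74% and 13 to 30. A match is a run of letters and not a measured binding site.

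Each library gave values in FPKM, which scale fragments by transcript length and by library depth and so allow levels of different genes to be compared. Judged by what 1 fragment is worth in single-transcript genes, depth was roughly 12.5 to 13.4 M (mega) fragments per library. The epithelial keratin genes KRT8, KRT18 and KRT19 and EPCAM were abundant (235.5 to 1540 FPKM), and CDH1 had 22.8 to 29.5 FPKM. Of the intestinal markers, CDX2 had 8.01 to 10.2 FPKM and KRT20 1.15 to 1.80 FPKM, whereas CDX1 and VIL1 were at or near 0. Of 11 marker genes of leukocytes, endothelium and fibroblasts, only LYZ reached 1 FPKM. In the EV controls the targeted gene, C14orf159, had 16.2 and 16.4 FPKM, beside 2.52 FPKM in KO 1 and 10.8 FPKM in KO 2. The KO libraries thus differ in how much of that transcript they kept. The KO libraries also differed more from each other than the controls did, with a robust SD of the log2 ratio of 0.203 against 0.0774 among 2070 genes of 30 to 100 FPKM. Between EV and KO libraries it was 0.185 to 0.219.

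All 8 members were expressed, and all passed the minimum of 1 FPKM in at least 2 libraries that was set for a test (12701 genes did). In the EV controls SOCS6 was the most abundant member, with a mean of 19.05 FPKM, above 65.4% of tested genes. SOCS7 followed at 10.2, SOCS3 at 9.72, SOCS4 at 8.75, SOCS5 at 8.61, SOCS2 at 5.50, SOCS1 at 2.55 and CISH at 1.97 FPKM. Of neighbours in this order, only SOCS4 and SOCS5 had replicate values that overlapped. In the KO libraries SOCS6 still had the highest mean, but its values overlapped those of SOCS3, and the replicate values of SOCS5 and SOCS4, of SOCS4 and SOCS2, and of SOCS1 and CISH overlapped as well.

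**Figure D1:**
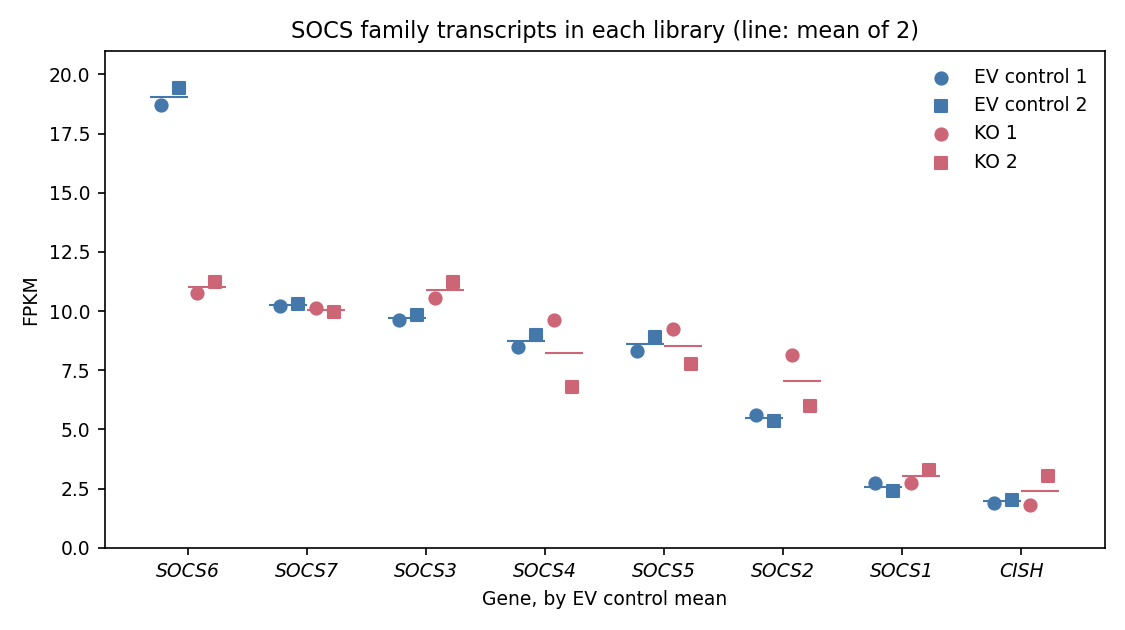
FPKM (vertical axis, from 0) of the 8 SOCS family genes in the 4 libraries, with EV control libraries in blue, KO libraries in red, circles for replicate 1, squares for replicate 2 and a line at each group mean. SOCS6 has 18.7 and 19.4 FPKM in the EV controls and 10.8 and 11.2 FPKM in the KO libraries, while the other members lie closer to their EV control mean.

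SOCS6 is known to bind the receptor kinase KIT and insulin receptor substrates. It had 18.7 and 19.4 FPKM in the EV control libraries, 10.8 FPKM in KO 1 and 11.2 FPKM in KO 2. Both KO libraries were low, at 56.5% and 59.0% of the EV control mean, and the groups lay far apart beside the gap within each. The difference was -0.74 on the log2(FPKM + 1) scale (SE 0.080, n = 2 per group), with -0.77 in KO 1 and -0.71 in KO 2. At least this far below the EV controls in both KO libraries lay 41 of 12701 tested genes (0.323%). As SOCS6 was chosen by this contrast, that share describes its place and is no support. Past 1.5-fold lower in both were 82 genes (0.646%). KO 1 kept 15.5% of the C14orf159 transcript and KO 2 kept 66.2%, with 1 library at each level and no protein values. Whether SOCS6 follows the level of C14orf159 was not tested. In bulk RNA, less transcript in each cell and fewer cells with the transcript cannot be told apart.

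SOCS7, the closest relative of SOCS6 in the family and a partner of the adaptor NCK, had 10.2 and 10.3 FPKM in the EV controls and 10.1 and 9.98 FPKM in KO 1 and KO 2. All 4 values lay within a narrow span, and the log2 difference was -0.03 (SE 0.080). The ratio of SOCS6 to SOCS7 was therefore 1.83 and 1.89 in the EV controls and 1.06 and 1.13 in the KO libraries.

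SOCS4 and SOCS5, a pair of paralogs known to act on the EGF receptor, shared a pattern in which KO 1 and KO 2 lay on opposite sides of the controls. SOCS4 had 8.49 and 8.998 FPKM in the EV controls, 9.63 in KO 1 and 6.81 in KO 2. SOCS5 had 8.30 and 8.92 FPKM in the EV controls, 9.25 in KO 1 and 7.78 in KO 2. For both genes KO 1 lay above and KO 2 below both controls, so the groups overlapped and the mean differences of -0.10 (SE 0.17) and -0.02 (SE 0.11) describe neither KO library. The RefSeq gene table lists 5 pseudogenes of SOCS5, 2 of SOCS2 and 1 of SOCS6, none of which has a row of its own in the files, and reads from such copies could count towards the parent gene.

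Among the members that STAT factors induce, SOCS2, an inhibitor of growth hormone signalling, had 5.63 and 5.37 FPKM in the EV controls, 8.14 in KO 1 and 5.98 in KO 2. Both KO values lay above the controls, and KO 1 was the higher at 1.48-fold of the control mean against 1.09-fold in KO 2. SOCS2-AS1, an antisense RNA that overlaps SOCS2 and whose reads cannot be told apart where strand was not used in counting, had 0.750 and 0.547 FPKM in the EV controls and 0.596 and 0.965 in KO 1 and KO 2. SOCS2-AS1 was far lower than SOCS2 and highest in KO 2. Whether its reads count towards SOCS2 was not tested.

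CISH, which inhibits STAT5 signalling, showed the reverse order of the KO libraries. It had 1.91 and 2.03 FPKM in the EV controls, 1.80 in KO 1 and 3.04 in KO 2. KO 1 lay just below the controls and KO 2 at 1.54-fold of their mean. At this low level the values rest on an estimated 47 to 82 fragments per library, for a counting error of 11% to 14.6% each.

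SOCS3, the feedback inhibitor of the gp130 receptor shared by the interleukin-6 family, had 9.62 and 9.82 FPKM in the EV controls and 10.5 and 11.2 FPKM in KO 1 and KO 2. Both KO values were slightly above both controls, at 1.08- and 1.15-fold of their mean, a log2 difference of 0.15 (SE 0.084). SOCS1, which inhibits Janus kinases directly and limits interferon signalling, had 2.72 and 2.38 FPKM in the EV controls and 2.74 and 3.29 FPKM in KO 1 and KO 2. Here KO 1 lay only just above the higher control, and the counting error of 12.5% to 14.4% per library is larger than that gap.

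**Figure D2:**
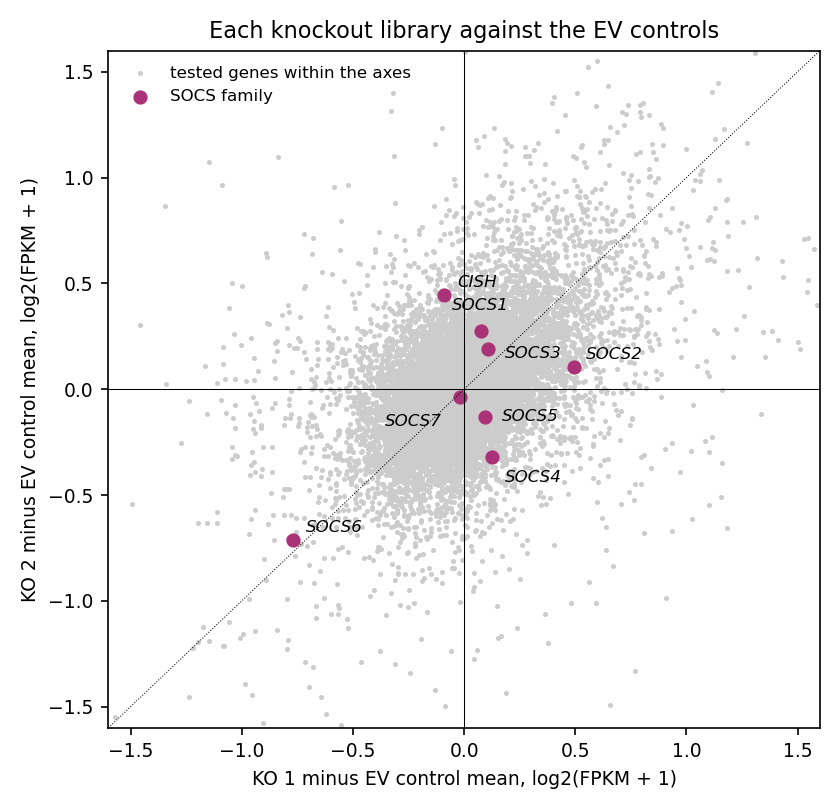
Difference of KO 1 (horizontal axis) and of KO 2 (vertical axis) from the EV control mean on the log2(FPKM + 1) scale, for the 8 SOCS family genes (purple, named) and for tested genes within the axes (grey), with a dotted line where both KO libraries are equal. SOCS6 lies near the dotted line at -0.77 and -0.71, whereas SOCS2, SOCS4, SOCS5 and CISH lie off it.

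Across the family, 3 members (SOCS1, SOCS2 and SOCS3) had both KO values above both controls and 2 (SOCS6 and SOCS7) had both below, against 26.5% and 25.6% of all tested genes. Nothing is read from these counts or from those that follow, since SOCS6 was chosen by this contrast. In KO 1 alone SOCS6 was the 1 member past 1.5-fold in FPKM + 1, as it was in KO 2 alone, with 2.32% and 2.46% of tested genes past that fold downwards. No member was past it upwards in KO 1 alone, KO 2 alone or both, as 3.49%, 4.38% and 1.42% of tested genes were. Without the added 1, CISH in KO 2 was past it at 1.54-fold in FPKM. Summed FPKM over the family was 65.6 and 67.2 in the EV controls and 63.0 and 59.3 in KO 1 and KO 2. Without SOCS6 the other members summed to 46.9 and 47.8 FPKM in the EV controls and 52.2 and 48.1 in KO 1 and KO 2, so SOCS6 made up 28.5% and 28.9% of the family sum in the controls and 17.1% and 18.9% in the KO libraries.

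The genes around the family in the pathway were next compared, from 8 lists of cytokines, receptors, kinases, STAT factors, inhibitors, ligase partners and targets. Of 175 listed genes in the files, 104 were tested. In limma with Benjamini-Hochberg adjustment over all genes, 0 were higher and 0 lower (background 0.0551% in each direction; smallest adjusted p = 0.1495, for CLCF1). At an unadjusted p under 0.05, 14 (13.5%) were higher and 3 (2.88%) lower, beside 9.23% and 7.22% of all tested genes. The median log2 difference of the lists together was 0.09, beside 0.00 over all tested genes (0.0031). These counts lean on single libraries. At the unadjusted level leaving out EV control 1 gave 2 higher and 1 lower, EV control 2 gave 4 and 2, KO 1 gave 30 and 11, and KO 2 gave 30 and 8. The adjusted counts were 16 higher and 5 lower without KO replicate 1 and 9 and 2 without KO replicate 2, where the lone KO library is assumed to vary like the controls.

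Among cytokine ligands, 5 of 24 were tested, with 2 higher and 0 lower at the unadjusted level (background 9.23% and 7.22%). CLCF1, a ligand of the interleukin-6 family, had 5.43 and 5.04 FPKM in the EV controls and 8.42 and 8.46 FPKM in the KO libraries, a log2 difference of 0.60 (SE 0.090, unadjusted p = 0.00132 and adjusted p = 0.1495 in limma). The groups did not overlap, with KO above as in 26.5% of all tested genes, and the KO values hardly differ. CLCF1 was named for its low p, so this adds no support. IL15 had 0.607 and 0.733 FPKM in the EV controls, 1.59 in KO 1 and 1.12 in KO 2, and IL11 0.853 and 0.831 against 1.07 and 1.77. Their levels are low, and the higher KO library is KO 1 for IL15 and KO 2 for IL11.

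Of 19 tested receptors that signal through Janus kinases, 3 were higher and 0 lower at the unadjusted level (background 9.23% and 7.22%). IL4R, the interleukin-4 receptor chain, had 7.57 and 7.97 FPKM in the EV controls and 10.3 and 11.5 FPKM in KO 1 and KO 2. IL11RA, the receptor chain for interleukin-11, had 3.21 and 3.80 FPKM in the EV controls and 5.18 and 6.91 in the KO libraries. EPOR, the erythropoietin receptor, had 9.76 and 8.21 FPKM in the EV controls and 10.96 and 11.7 in the KO libraries. In all 3 the groups did not overlap, with KO above as in 26.5% of all tested genes. They were named for their low p, so this adds no support. Adjusted p-values in limma were 0.200, 0.210 and 0.288.

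Janus kinases and STAT factors gave 0 of 10 tested genes in either direction at the unadjusted level (background 9.23% and 7.22%). Their median log2 difference was 0.08. STAT4 had 1.04 and 0.893 FPKM in the EV controls and 1.36 and 1.67 in KO 1 and KO 2, STAT5B 2.29 and 1.98 against 2.54 and 2.63, and JAK3 1.93 and 1.98 against 2.52 and 2.03. STAT5A, a factor known to induce CISH, was listed at 0 in both controls and had 0.0186 and 0.0180 FPKM in KO 1 and KO 2. Elongin and cullin partners of the SOCS box also gave 0 of 11 in either direction. The largest difference of those named was that of UBE2F, a NEDD8-conjugating enzyme, with 15.2 and 15.5 FPKM in the EV controls and 16.2 and 20.9 in KO 1 and KO 2. TCEB1, the elongin C gene, had 49.0 and 50.3 FPKM against 52.5 and 55.8, and NEDD8 had 286.1 and 283.1 FPKM against 289.2 and 335.2.

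Among 13 other inhibitors of JAK-STAT signalling, 2 were higher and 0 lower at the unadjusted level (background 9.23% and 7.22%). SH2B3, an adaptor that restrains JAK2 and is also called LNK, had 5.98 and 6.46 FPKM in the EV controls and 8.25 and 8.59 FPKM in KO 1 and KO 2. PIAS3, an inhibitor of STAT3, had 16.4 and 16.8 FPKM against 19.1 and 20.8. USP18, which restrains interferon receptors, had 2.40 and 3.44 FPKM against 5.89 and 3.67, so that KO 1 alone stood out. Their adjusted p-values in limma were 0.208, 0.277 and 0.343.

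Other proteins with a SOCS box showed both directions. At the unadjusted level 2 of 16 tested genes were higher and 2 lower (background 9.23% and 7.22%). RAB40B, a small GTPase, had 12.6 and 11.5 FPKM in the EV controls and 14.9 and 15.4 in the KO libraries, and the WD-repeat gene WSB2 had 27.8 and 27.0 FPKM against 32.1 and 35.9. ASB16, an ankyrin repeat protein, had 1.38 and 1.66 FPKM against 0.979 and 0.622, the lowest difference of the list at -0.49. The groups did not overlap for these genes, which were named for their low p. Over all tested genes 26.5% had KO above and 25.6% KO below. Adjusted p-values in limma were 0.233, 0.245 and 0.278.

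Of 15 tested kinases, substrates and adaptors linked to SOCS proteins, 0 were higher and 1 lower at the unadjusted level (background 9.23% and 7.22%). That gene was PIK3R1, the regulatory subunit of PI3 kinase, with 6.92 and 6.68 FPKM in the EV controls, 4.08 in KO 1 and 1.70 in KO 2 (log2 difference -1.08, SE 0.31, adjusted p = 0.239 in limma). Both KO libraries were low, and KO 2 was by far the lower. SORBS3, the vinexin gene, had 37.8 and 37.5 FPKM in the EV controls and 33.3 and 33.0 in the KO libraries, and ERBB2 had 24.9 and 25.3 against 28.4 and 27.8. KIT, a kinase that SOCS6 is known to bind, was listed at 0 in all 4 libraries.

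STAT3 and STAT5 target genes gave 5 of 18 tested genes higher and 0 lower at the unadjusted level (background 9.23% and 7.22%). Their log2 differences ran from -0.69 to 0.64 with a median of 0.12, and no set test was run on this list. IER3, an immediate early gene, had 384.9 and 362.1 FPKM in the EV controls and 641.8 and 476.9 FPKM in KO 1 and KO 2. BCL3, a nuclear IκB protein gene, had 5.84 and 6.33 FPKM against 7.73 and 10.1, and TIMP1, a metalloproteinase inhibitor gene, had 122.5 and 110.4 FPKM against 142.7 and 178.5. KO 1 was the higher KO library for IER3 and KO 2 for BCL3 and TIMP1, and adjusted p-values in limma were 0.243, 0.245 and 0.245.

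**Figure D3:**
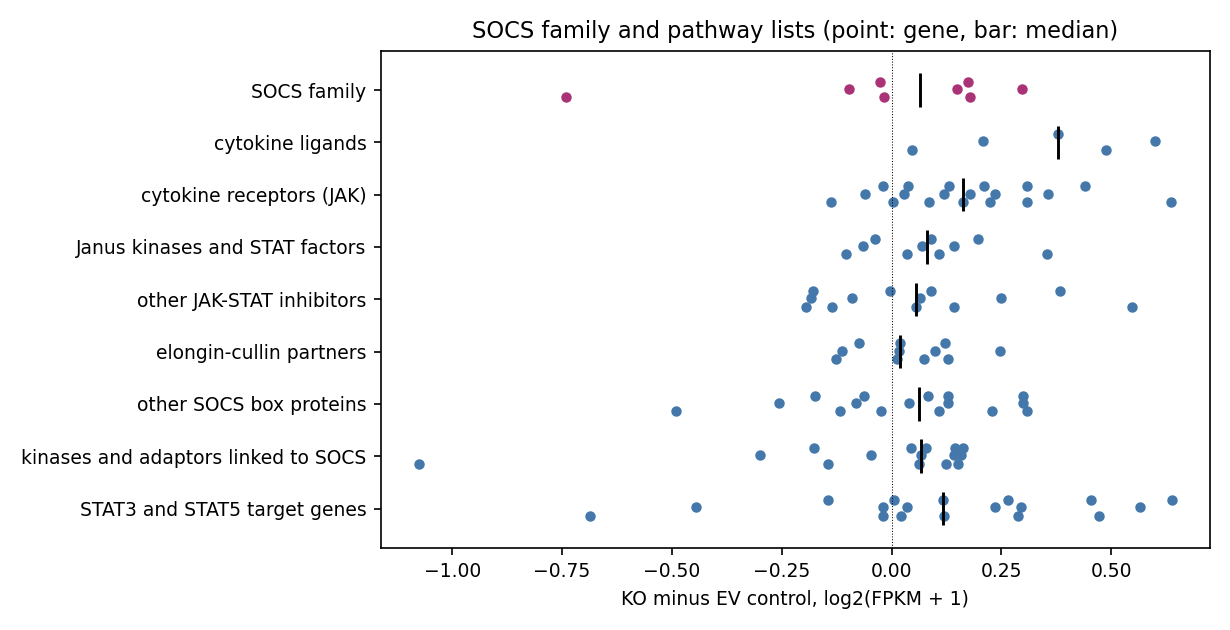
Log2(FPKM + 1) difference of KO from EV control (horizontal axis) for each tested gene of the SOCS family (purple) and of the 8 pathway lists (blue), with a bar at each median. SOCS6 at -0.74 is the lowest point of its family, and the medians of the pathway lists run from 0.02 for elongin and cullin partners to 0.38 for the 5 cytokine ligands.

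SOCS6 lies on chromosome 18, and its neighbours there were examined in gene order. Of the tested genes, the nearest before it was RTTN, which encodes a centriole protein and had 8.21 and 8.0 FPKM in the EV controls and 5.72 in each KO library. RTTN thus stood at 70.6% of the control mean in both KO libraries. The next gene out, TMX3, had 10.8 and 11.4 FPKM against 10.9 and 8.98. The nearest after SOCS6, the mitochondrial import gene TIMM21, had 25.3 and 25.6 FPKM against 17.4 in KO 1 and 25.3 in KO 2, and CYB5A, the cytochrome b5 gene, had 40.3 and 37.6 against 39.8 and 58.5. Only RTTN among these 4 was low in both KO libraries.

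Over the 20 tested genes on each side, the median log2 difference was -0.09 (-0.07 in KO 1 and -0.12 in KO 2), beside -0.01 over the 168 tested genes of the chromosome other than SOCS6 and 0.00 over all tested genes (0.0031). Both KO values lay below both controls for 18 of these 40 genes (45%) and above for 8 (20%). On the chromosome as a whole these shares were 23.8% and 25.6%, and over all tested genes 25.6% and 26.5%. Past 1.5-fold lower in both KO libraries was 1 of the 40 neighbours, MALT1, a paracaspase gene chosen here after its values were seen. MALT1 had 19.2 and 19.8 FPKM in the EV controls and 9.68 and 8.30 in KO 1 and KO 2, with 16 tested genes between it and SOCS6. What part the position of SOCS6 has in its level was not tested.

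**Figure D4:**
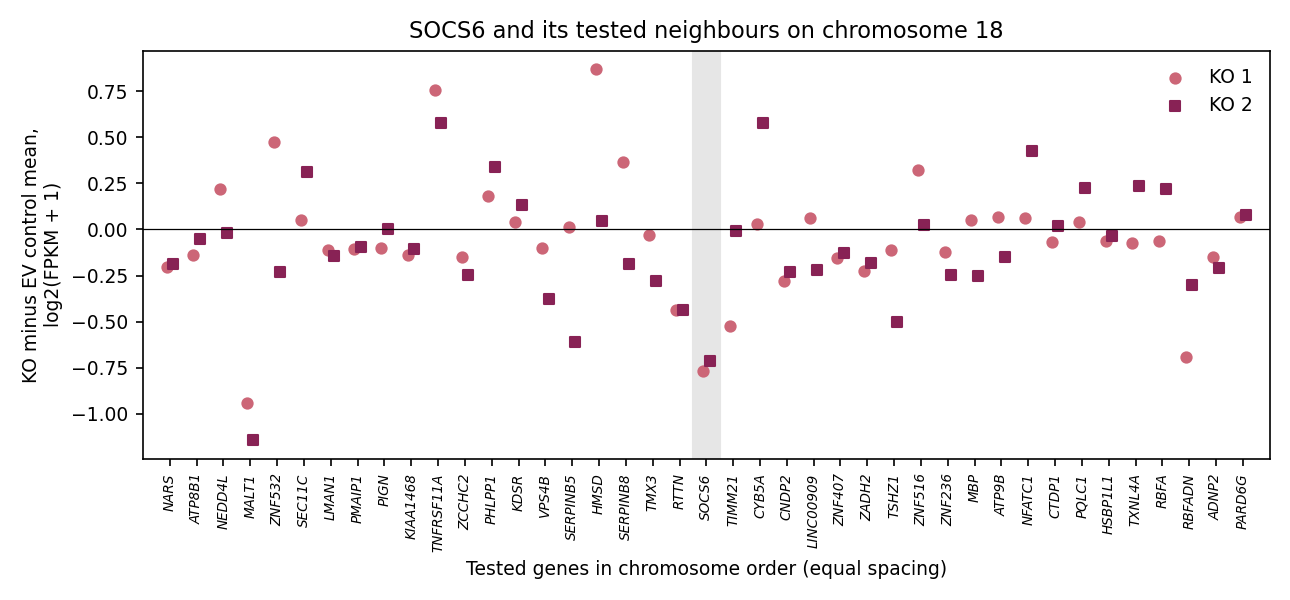
Log2(FPKM + 1) difference from the EV control mean (vertical axis) in KO 1 (circles) and KO 2 (squares) for SOCS6 (shaded) and the 20 tested genes on each side in chromosome order, at equal spacing. SOCS6 and MALT1 are the 2 genes past 1.5-fold lower in both KO libraries, and RTTN next to SOCS6 lies at -0.44 in both.

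Genes most like SOCS6 over the 4 libraries were found by the distance between log2(FPKM + 1) values after the EV control mean was taken off, among 9095 other genes of at least 5 FPKM. Among the nearest were COL12A1, a fibril-associated collagen gene (distance 0.0498), HNRNPH2 (0.0874), TSPAN1, a tetraspanin gene (0.0920), and KIF18A, a mitotic kinesin gene (0.121). COL12A1 had 19.3 and 20.7 FPKM in the EV controls and 11.6 in each KO library, and KIF18A had 18.2 and 19.6 against 11.1 and 12.1. HNRNPH2 has a close paralog with which it can share reads. None of these 4 lies on chromosome 18. They were picked for values like those of SOCS6, so their lower KO values follow from the choice. Any link between position and this pattern was not tested.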

How the data were processed

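RNA of 2 EV control and 2 C14orf159 KO samples of HCT116 cells was made into libraries with the TruSeq stranded mRNA kit, per the labels' protocols. The authors deposited FPKM per gene symbol, 1 file per library. Per the submitters' processing notes, the tools were Cuffnorm 2.2.1, TopHat2 2.0.13, SAMtools 0.1.19 and Bowtie2 2.2.3, and the build hg19. For annotation, strand setting and library scaling, the method is not given in the sources used.

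Values were taken as log2(FPKM + 1), which understates the change of low genes, and genes with at least 1 FPKM in at least 2 libraries were fitted on group alone with limma 3.58.1 (R 4.3.3; eBayes with trend), using Benjamini-Hochberg adjustment over 12701 genes (threshold 0.05). The fit was tested on simulated data with the same spread in all libraries. The KO libraries here differed more from each other than the controls did, which that simulation does not cover. Differences are KO minus EV control, and each KO library was also set against the EV control mean. The value of 1 fragment was the median of FPKM times length between 0.06 and 0.1 in 2008 genes with a single GENCODE transcript of 1000 to 6000 nt, so depths are rough and counting errors cover counting alone. Gene order and promoters came from RefSeq tables of GRCh38.p14 (98.6% of tested genes placed; 5 of 8 members with a promoter), by symbol.

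The members and lists were chosen with earlier results of these data known. Named are all members, the targeted gene, the 3 genes of lowest p in each list (a gene past the threshold would also be named), the nearest 2 tested neighbours of SOCS6 on each side and the 5 genes most like it, of which 1 is not reported here; STAT5A, KIT and MALT1 were added after their values were seen. Alternatives were other pseudocounts, filters and scalings, limma without the trend and robust limma, a replicate block, leaving out each library, and leaving out small RNA genes. A crossed replicate block was added after the data were seen.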

Additional observations from a re-analysis of the deposited data

How the results depend on the processing

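The log2 difference of SOCS6 kept its sign under all 15 alternatives, the crossed replicate block included, and ran from -0.79 to -0.71. It moved by more than the spread between replicates only with a pseudocount of 0.1 (-0.79). Filters, the limma variants, replicate blocks and leaving out small RNA genes cannot change a gene's difference here, so their result was fixed in advance. SOCS6 was also chosen by this contrast, so its kept sign is no support. Leaving out each library gave -0.77 to -0.71. SOCS1, SOCS2, SOCS3 and SOCS7 kept their sign as well, whereas SOCS4 ran from -0.32 to 0.13, SOCS5 from -0.13 to 0.09 and CISH from -0.09 to 0.44 as KO libraries were left out.

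In the pathway lists, adjusted counts were 0 in both directions except without a KO library, and ranged from 0 to 16 higher and 0 to 5 lower as each library was left out. Unadjusted counts then ranged from 2 to 30 higher and 1 to 11 lower. With a replicate block, 10 were higher and 1 lower at that level. Over all tested genes, the counts past the threshold of 7 higher and 7 lower became 3 and 3 without a filter, 3 higher in limma without the trend, 4 lower with quantile normalization, 0 and 0 without small RNA genes, 4 higher with a replicate block, and 11 lower with the crossed replicate block. Leaving out each library gave 6 to 1381 higher and 5 to 881 lower.

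Replicate numbers do not pair the libraries by any label, and the deviations of same-numbered libraries had a correlation of -0.12 across genes. With 2 libraries a group, the differences of the 7 members other than SOCS6 were each under 2 SE and could not be told from library spread. This is a description and no test. SOCS6 was left out here because it was chosen by this contrast, so nothing follows for it. For SOCS1, SOCS2, SOCS4, SOCS5 and CISH the gap between the KO libraries was larger than the mean difference.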
